A study of Mus musculus with 4 samples.

Results

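Cluster 68 is a population of neurons of the posterior mouse hindbrain, the region that holds the area postrema and the nucleus of the solitary tract. Its members were the nuclei that the authors kept after quality control, annotated as neurons and assigned to preliminary cluster 68 in their deposited table, in which the cluster is named after Klhl1 and Tafa1. There were 131 such nuclei among 12539 neurons (1.04%), which made it the 30th largest of 134 neuronal clusters, and the 12408 other neurons served as the comparison. Against the other neurons these nuclei had high levels of Slc17a6, Nr4a2 and the genes of the Pou4f1 locus and low levels of Pax2 and Gad2. No gene passed the test between the groups inside the cluster. For 1 gene, Arpp21, the group difference passed a test against that in the other neurons, with a limit given below.

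The series asked how the joint activity of hypothalamic AgRP and POMC neurons changes gene expression in downstream hindbrain neurons. Nuclei came from 4 libraries. The labels call the mice of the 2 control libraries wild-type, whereas the methods describe controls that lack both recombinases (AgRP-IRES-Cre-/- and POMC-Dre-/-) and carry hM3DGqfl/- and hM4DGifl/- like the other group. The 2 AgRP-Gq;POMC-Gi libraries were from mice with AgRP-IRES-Cre+/- and hM3DGqfl/- together with POMC-Dre+/- and hM4DGifl/-. In the latter, Cre recombinase driven from Agrp switches on the activating receptor hM3DGq, and Dre recombinase driven from Pomc switches on the inhibitory receptor hM4DGi. Mice of both groups were adults of 12 to 20 weeks and of both sexes, and both received clozapine N-oxide (CNO), the ligand of these receptors, at 3 mg per kg. They were killed 1 h later without access to food. Pomc is also transcribed in some neurons of the nucleus of the solitary tract, receptor transcripts were not analysed here, and no group went without CNO. Each group is described as 2 mice, with samples of a condition pooled, so whether the 2 libraries of a group are separate mice is not known. The p-values between groups therefore measure only the spread between libraries, which may be technical.

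Neurons of the dorsal hindbrain arise from progenitor domains that are told apart by transcription factors, and adult neurons often retain traces of that code. Foxd3, Pou4f1 (Brn3a), Lhx1 and Lhx5 belong to factors used by early-born dorsal interneurons, whereas Pax2 marks many inhibitory ones. Fast excitatory neurons load glutamate into vesicles with Slc17a6 (VGLUT2), and inhibitory neurons make GABA with Gad1 and Gad2, load GABA or glycine with Slc32a1 and recover glycine with Slc6a5. Immediate early genes (IEGs) are transcribed within minutes of strong synaptic or hormonal input and serve as a readout of recent activity.

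Control replicates 1 and 2 held 21 and 39 of these nuclei with 221862 and 457919 UMIs in all, and AgRP-Gq;POMC-Gi replicates 1 and 2 held 45 and 26 nuclei with 462797 and 262161 UMIs. A UMI is a tag for 1 captured RNA molecule. Levels below are counts per 1e6 summed UMIs of the same nuclei of a library (CPM), given as mean ± SD over the 4 libraries. They are not divided by transcript length, so each gene is compared with itself across populations. The median nucleus had 9502 UMIs and 3708 genes, close to the 8698 UMIs and 3564 genes of the other neurons and well above the 2460 UMIs of oligodendrocytes, which are used below as cells that should lack neuronal genes. No barcode was shared between 2 libraries within the cluster.

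Neuronal markers were well above those of glia in these nuclei. All 6 neuronal markers passed a detection minimum, a UMI in 5% of the nuclei, and Rbfox3, an RNA-binding protein of mature neurons, had a UMI in 75.6% of nuclei against 2.02% of oligodendrocytes. Beside the other neurons 4 of the 6 (Rbfox3, Snap25, Syt1 and Stmn2) were lower in all 4 libraries and 1, Celf4, higher (11.1% and 8.67% over all detected genes), with a median log2 ratio of -0.37. The summed level of 6 oligodendrocyte markers was 199 to 284 CPM per library, against 11034 to 13064 CPM for the neuronal markers. Of 4 markers of oligodendrocyte precursors 1 passed the detection minimum, and Pdgfra, Cspg4 and Olig2 had no UMI. Of 5 microglial markers 3 passed it and Csf1r had no UMI, with a summed level of 175 to 246 CPM per library. Of 6 astrocyte markers 3 passed it, with a summed level of 38.9 to 117 CPM. The microglial marker P2ry12 had 157 ± 29.8 CPM, but the gene lies within Med12l on the opposite strand, so its reads cannot be told apart from those of Med12l where counting ignored strand. Ttr, a choroid plexus transcript, differed strongly by library with 0 and 889 CPM in the controls and 8.64 and 534 CPM in the AgRP-Gq;POMC-Gi libraries. The list of ependymal and choroid plexus markers also holds Foxj1 and Dnah12, with 2 and 1 UMIs, and Htr2c, a receptor that neurons express too, and its summed level was 1318 to 2171 CPM, nearly all from Ttr and Htr2c. Xist, transcribed from the inactive X chromosome, was 38.1 CPM in AgRP-Gq;POMC-Gi replicate 2 and 257, 526 and 609 CPM in the other 3, so that library stood apart.

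The promoters of 3 genes that mark the cluster are shown, because Nr4a2 and Foxd3 had their highest level among the neuronal clusters here, and Pou4f1 and Foxd3 belong to the developmental code described above. The letters are RefSeq sequence of GRCm38.p6, 250 bases before to 50 bases after the gene's start, written 5′ to 3′ on the gene's strand, with capitals where 1 of 4 motifs matched on either strand. The motifs were the cyclic AMP response element TGACGTCA, the homeodomain core TAATTA, the GC box GGGCGG and the NR4A site AAAGGTCA.
Pou4f1, chr14:104467950-104468249 (minus strand): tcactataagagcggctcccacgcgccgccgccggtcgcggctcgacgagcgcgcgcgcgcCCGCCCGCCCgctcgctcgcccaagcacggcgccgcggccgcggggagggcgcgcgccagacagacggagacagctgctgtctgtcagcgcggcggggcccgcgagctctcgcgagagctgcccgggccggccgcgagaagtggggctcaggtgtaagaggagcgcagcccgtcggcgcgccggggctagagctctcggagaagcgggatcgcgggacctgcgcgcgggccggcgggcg
Foxd3, chr4:99656049-99656348 (plus strand): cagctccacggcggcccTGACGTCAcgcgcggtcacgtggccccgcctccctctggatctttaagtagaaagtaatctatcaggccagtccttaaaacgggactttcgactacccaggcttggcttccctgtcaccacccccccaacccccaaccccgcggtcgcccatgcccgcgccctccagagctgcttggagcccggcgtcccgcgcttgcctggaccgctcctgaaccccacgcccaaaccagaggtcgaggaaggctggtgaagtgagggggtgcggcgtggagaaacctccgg
Nr4a2, chr2:57123954-57124253 (minus strand): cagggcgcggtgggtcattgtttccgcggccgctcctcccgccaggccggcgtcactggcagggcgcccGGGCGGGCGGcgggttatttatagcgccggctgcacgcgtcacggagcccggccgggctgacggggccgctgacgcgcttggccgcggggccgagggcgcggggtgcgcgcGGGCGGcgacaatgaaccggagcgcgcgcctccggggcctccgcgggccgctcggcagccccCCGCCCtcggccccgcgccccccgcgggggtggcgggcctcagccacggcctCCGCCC
The windows of Pou4f1 and Nr4a2 were 78.3% and 81.7% G and C, that of Foxd3 65.7%, against a median of 52.7% over 32851 promoters. Foxd3 held the cyclic AMP response element at bases 18 to 25, a motif found in 1.79% of all promoters. Pou4f1 held GC boxes at bases 62 to 67 and 66 to 71, which overlap, and Nr4a2 held 5, in a motif found in 35.7% of all promoters. The NR4A site was found in 1.51% of all promoters and the homeodomain core in 5.29%. Of the 20 leading genes named below, 13 had a promoter in the table, 22 promoters in all, and of these 22 the GC box was found in 8, the homeodomain core in 3 and the other 2 motifs in 0.

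The 20 leading genes were those with a UMI in 25% or more of the nuclei and a higher level than in the other neurons in each of the 4 libraries that had the largest ratio of means. The clusters were built from gene expression in the same nuclei, in an embedding that left out IEGs, so these levels are a description. Nr4a2 (Nurr1), a nuclear receptor and activity-responsive transcription factor, led with 31.6, 43.7, 95.1 and 64.8 CPM in control 1, control 2 and AgRP-Gq;POMC-Gi 1 and 2. The mean was 58.8 ± 27.8 CPM against 2.38 ± 0.599 CPM in the other neurons, the highest of all neuronal clusters, with cluster 116 next at 41.7 CPM. It had a UMI in 36 of 131 nuclei (27.5%, exact 95% interval 20.0 to 36.0) against 1.49% of the other neurons and 0.137% of oligodendrocytes. All 4 libraries lay above every library of the other neurons. In total 1061 of 12238 detected genes (8.67%) were higher than in the other neurons in all 4 libraries and 1361 (11.1%) were lower.

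The Pou4f1 locus gave 3 of the 6 genes at the top of the list. Pou4f1, a POU-domain transcription factor of sensory and dorsal interneurons, had 22.5, 52.4, 34.6 and 53.4 CPM and a mean of 40.7 ± 14.9 CPM against 6.35 ± 3.71 CPM in the other neurons. D130009I18Rik, a long non-coding RNA gene on the other strand (chr14:104612791-104966783 in GRCm38) that lies 144791 bases from Pou4f1 (chr14:104461676-104467999), reached 480 ± 62.6 against 72.9 ± 48.8 CPM. It had a UMI in 70.2% of nuclei against 6.41% of the other neurons. D130079A08Rik (chr14:104288431-104459336), a long non-coding RNA gene on the same strand as Pou4f1 with 2339 bases between them, was at 258 ± 51.8 CPM against 44.0 ± 38.0 CPM. These 3 genes were not unique to cluster 68, since cluster 72 had D130009I18Rik at 2392 CPM and Pou4f1 at 122 CPM.

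The second gene on the list, Gm12688, is a long non-coding RNA gene (chr4:99653607-99654983, minus strand) that lies 1315 bases from Foxd3 (chr4:99656299-99658622, plus strand). It had 27.0, 83.0, 71.3 and 80.1 CPM against 5.53 ± 1.09 CPM in the other neurons, and a UMI in 44.3% of nuclei. Foxd3 itself, the forkhead factor whose promoter is printed above, had 13.5, 10.9, 6.48 and 15.3 CPM, from 15 UMIs in 13 nuclei. Its level of 0.786 ± 0.281 CPM in the other neurons was far lower, and cluster 68 ranked first for Foxd3 of the 134 neuronal clusters. Foxd3 was seen in 9.92% of nuclei (exact 95% interval 5.39 to 16.4) against 0.677% of the other neurons. Of the 13 nuclei with a Foxd3 UMI 5 also had one of Gm12688 (38.5%), beside 44.3% of all 131.

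The other leading genes fell into a few roles. Slit3, a secreted axon guidance ligand, had 463 ± 104 CPM against 114 ± 10.2 CPM, and Tafa1, a small secreted protein of neurons for which the cluster is named, had 1813 ± 412 CPM against 504 ± 15.6 CPM with a UMI in 92.4% of nuclei. Bdnf, a neurotrophin, had 50.1 ± 8.79 CPM against 13.2 ± 1.96 CPM. Tacr1, the receptor for substance P, had 72.1 ± 15.5 CPM against 18.3 ± 0.782 CPM, and Tac1, which encodes substance P, had 60.2 ± 21.0 CPM against 17.5 ± 1.10 CPM. Tac1 was the last gene in, with a log2 ratio of 1.73, and Tmem200a the first out at 1.71. Zic4, a zinc finger factor of the dorsal hindbrain, had 55.7 ± 20.0 CPM against 15.5 ± 3.13 CPM. Other members included Palld, Gm12128, 4930598N05Rik, Colec12, Gpr149, Chst8, Gm28905 and Gm2164. Gm28905 and 4930598N05Rik overlap by 23182 bases on the same strand, so a read in the shared bases fits both genes. Nr4a2 was the only leading gene that ranked first of all clusters, 3 ranked in the top 3, and none was free of another cluster above 50% of its level. Klhl1, an actin-binding protein that also gave the cluster its name, had 525 ± 217 CPM against 178 ± 31.8 CPM and ranked 4 of 134.

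The 10 low genes were taken by the mirrored rule, from genes with a UMI in 25% or more of the other neurons. Pax2, the paired-box factor of inhibitory interneurons, had 1 UMI in all 131 nuclei against 61.0 ± 4.03 CPM in the other neurons. Gad2, which makes GABA, had 4, 2, 4 and 5 UMIs in the 4 libraries, a mean of 12.5 ± 7.18 CPM against 96.3 ± 2.25 CPM. Nfib, a factor of later-born neurons, and Ebf3, a helix-loop-helix factor, had 12.0 ± 7.64 against 106 ± 6.51 CPM and 13.9 ± 7.99 against 97.8 ± 10.4 CPM. Cacna2d3, an auxiliary subunit of voltage-gated calcium channels, had 104 ± 42.2 against 531 ± 16.3 CPM. Pcsk5, Pdzd2, Fras1, Lrtm1 and Slc4a4 completed the list with 9.22 to 19.8 CPM against 66.7 to 125 CPM.

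**Figure D1:**
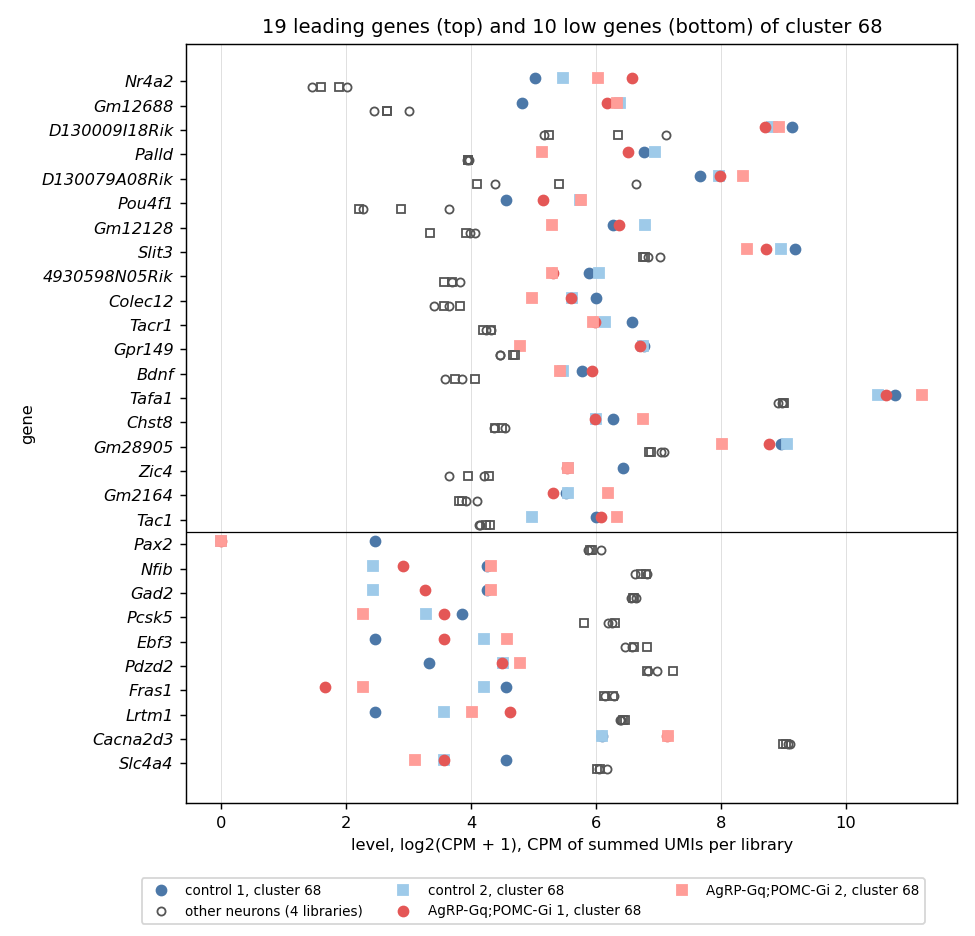
The plot of leading and low genes shows the level of each gene as log2(CPM + 1) on the horizontal axis, with filled symbols for the 4 libraries of cluster 68 and open symbols for the other neurons of the same libraries. In each library the 19 leading genes plotted lay to the right of the other neurons and the 10 low genes to their left, and Pax2 was at 0 in 3 of 4 libraries.

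Among 105 transcription factors used to describe hindbrain neurons, 45 had a UMI in 5% or more of the nuclei and 25 had none. Of the 45, 7 were higher in all 4 libraries and 19 lower (8.67% and 11.1% over all detected genes), with a median log2 ratio of -0.25 beside 0.01 over all detected genes. Rora, Meis2, Esrrg and Pbx3 had 1029.8, 531, 487 and 415 CPM here against 1221, 350.3, 483 and 315 CPM in the other neurons. The 7 that were higher were Foxd3, Pou4f1, Zic4, Satb1, Lhx5, Foxp4 and Zfhx4, of which Satb1, a chromatin organizer, had 113 ± 15.8 CPM against 40.7 ± 6.52 CPM. Lhx5 had 16.7 ± 11.8 CPM against 6.32 ± 1.17 CPM, and its partner Lhx1 had 19.7 ± 3.81 CPM against 14.7 ± 2.00 CPM, higher in 3 of 4 libraries. Ebf2, a factor of the same family as Ebf3, was low at 6.25 ± 4.20 CPM against 70.3 ± 13.7 CPM. Hoxb3, which marks the posterior hindbrain, was at 46.0 ± 15.3 CPM beside 49.6 ± 4.81 CPM in the other neurons. Tlx3 and Lbx1, which define other dorsal hindbrain classes, had 1 UMI each.

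Slc17a6, a marker of glutamatergic neurons, was higher than in the other neurons, and Gad1, Gad2 and Slc32a1, the 3 genes taken as markers of GABAergic neurons, were lower. Slc17a6 had 126, 148, 123 and 156 CPM, a mean of 139 ± 16.4 CPM against 75.2 ± 3.10 CPM in the other neurons, with a UMI in 85 of 131 nuclei (64.9%) against 35.4% of the other neurons and 3.49% of oligodendrocytes. The other glutamate transporters Slc17a7 and Slc17a8 had 3 and 2 UMIs. Gad1 was at 10.9 ± 6.05 CPM against 51.1 ± 3.36 CPM, and Slc32a1 had 4 UMIs in all, with 3.17 ± 1.18 CPM against 27.4 ± 1.11 CPM. Gad2 had a UMI in 5.34% and Slc32a1 in 3.05% of nuclei, beside 3.03% and 2.82% of the shallower oligodendrocytes. With every nucleus thinned to 2000 UMIs, which left out 2 of the 131 nuclei, 164 of the other neurons and 5416 oligodendrocytes, Slc17a6 had a UMI in 23.3%, 13.2% and 2.73% of nuclei in that order. Gad2 then had one in 0.775%, 16.2% and 2.14%, so its share here was at the background of oligodendrocytes. The log2 ratio of Slc17a6 to Gad2 UMIs was 3.37 ± 0.926 here and -0.35 in the other neurons, without correction for length.

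Slc6a5, the glycine transporter of glycinergic neurons, had 54.1, 52.4, 43.2 and 11.4 CPM, lower than the 83.7 ± 5.98 CPM of the other neurons. It had a UMI in 18 nuclei (13.7%) against 1.39% of the shallower oligodendrocytes, shares that are not matched for depth. Of these 18 nuclei, 14 also had a UMI of Slc17a6 (77.8%), beside 85 of all 131 nuclei. Th, the first enzyme of catecholamine synthesis, had 11.3 ± 6.92 CPM against 3.25 ± 1.30 CPM from 16 UMIs in 12 nuclei, whereas Dbh had no UMI and Ddc had 4. Dbh in 0 of 131 nuclei allows a share of up to 2.29% of nuclei with a UMI, by 3 counts of the total. Tph2 and Chat, for serotonin and acetylcholine, had 1 and 3 UMIs.

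**Figure D2:**
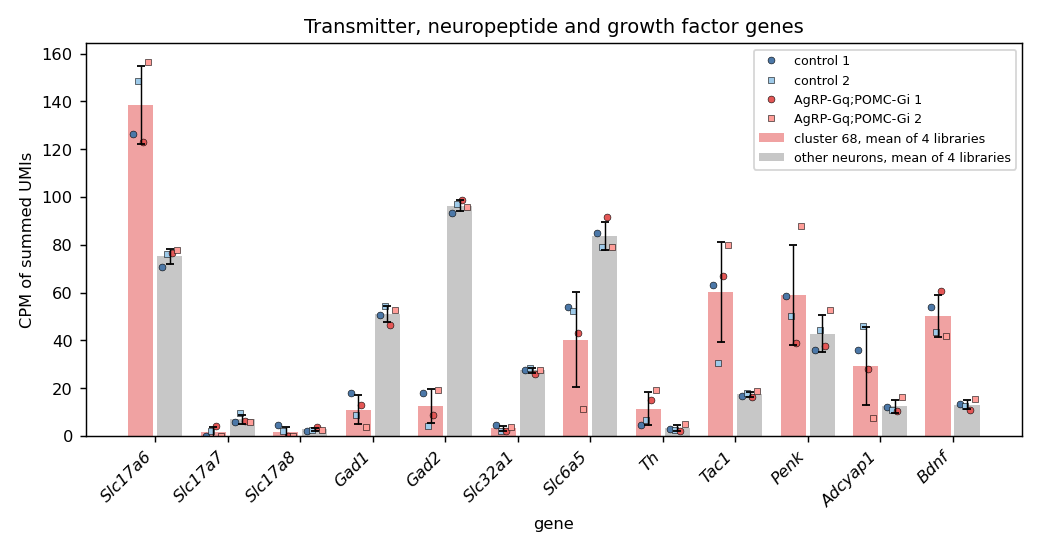
The bar plot gives CPM from 0 for 12 transmitter, peptide and growth factor genes, with bars for the mean of 4 libraries, error bars for the SD and points for the libraries, in cluster 68 and in the other neurons. Slc17a6 is higher and Gad1, Gad2 and Slc32a1 are lower in all 4 libraries of cluster 68, and the point of Slc6a5 in AgRP-Gq;POMC-Gi replicate 2 lies at 11.4 CPM, apart from the other 3.

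Of 31 neuropeptide genes 12 passed the detection minimum and 9 had no UMI. Tac1 and Penk were higher in all 4 libraries, 3 genes were lower (8.67% and 11.1% over all detected genes), and the median log2 ratio of the 12 was 0.47. Penk, which encodes enkephalins, had 58.9 ± 20.9 CPM against 42.7 ± 7.74 CPM. Adcyap1, which encodes PACAP, had 36.1, 45.9, 28.1 and 7.63 CPM against 12.4 ± 2.68 CPM, and AgRP-Gq;POMC-Gi replicate 2 was the only library not above its other neurons. Scg2, a granin of secretory granules, was at 120 ± 26.1 CPM beside 136 ± 19.0 CPM. Agrp had a UMI in 54.2% of these nuclei and in 50.8% of the other neurons, at 76.1 ± 19.8 and 88.1 ± 3.92 CPM, so its level was no feature of the cluster. The authors place AgRP neurons in the arcuate nucleus of the hypothalamus. Whether these UMIs come from Agrp transcripts made by the hindbrain neurons was not tested.

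Of 37 monoamine and acetylcholine receptors 16 passed the detection minimum, 8 were higher in all 4 libraries and 2 lower (8.67% and 11.1% over all detected genes), with a median log2 ratio of 0.56. The receptors named here were chosen with their values known. Htr2c, the receptor through which serotonin reduces feeding and also a marker of choroid plexus, had 1605, 1278, 1309 and 858 CPM against 729 ± 64.3 CPM. It was highest in the control library where Ttr had no UMI, and had a UMI in 84.0% of nuclei, 64.6% of the other neurons and 2.65% of oligodendrocytes. Htr7, Htr4 and Htr2a had 118, 100.2 and 38.7 CPM against 63.8, 61.3 and 13.4 CPM. Chrm3, a muscarinic receptor that couples to Gq, had 427 CPM against 352 CPM, whereas Chrm2, which couples to Gi, was lower at 86.6 ± 21.3 CPM against 263 ± 7.31 CPM. Adrb1, a noradrenaline receptor, had 13.2 ± 7.16 CPM against 4.09 ± 0.290 CPM.

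Of 55 receptors for feeding hormones and peptides, a list that also holds Htr2c, 22 passed the minimum, 5 were higher in all 4 libraries and 3 lower (8.67% and 11.1% over all detected genes), with a median log2 ratio of 0.12. Npsr1, the neuropeptide S receptor, stood out with 135, 69.9, 58.3 and 49.6 CPM against 8.54 ± 2.30 CPM and ranked 4 of 134 neuronal clusters. Insr and Igf1r, the insulin and IGF1 receptors, had 125 and 126 CPM against 124 and 154 CPM, and Lepr, the leptin receptor, had 18.2 ± 6.37 CPM beside 17.7 ± 2.03 CPM. Receptors that mark known satiety neurons of this region were near the limit of detection. Glp1r and Calcr had 4 UMIs each, Mc4r had 2, Gfral had 1 and Cckar had none.

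Fast receptors and channels differed in part from the other neurons. Of 22 GABA and glycine receptor genes 18 were detected in 5% of nuclei, 0 were higher and 6 lower in all 4 libraries (8.67% and 11.1% over all detected genes), with a median log2 ratio of -0.28. Gabrg3, a subunit of the GABA-A receptor, was at 279 ± 78.8 against 806 ± 26.3 CPM, and Glra1, the main adult glycine receptor subunit, was at 136 ± 38.8 against 230 ± 2.60 CPM. Of 24 glutamate receptor genes 23 were detected, 10 higher and 7 lower beside the same shares of all genes, with a median log2 ratio of 0.02. Grm7 and Grm8, presynaptic metabotropic receptors, had 3109 and 804 CPM against 1800 and 487 CPM, and Grin2a, an NMDA receptor subunit, had 242 against 528 CPM.

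Of 40 potassium channel genes 35 were detected, 4 higher and 11 lower (8.67% and 11.1% over all detected genes), with a median log2 ratio of -0.09. Kcnip4, a partner of A-type channels, had 7506 against 4090 CPM and Kcnh8 8.19 against 73.1 CPM. Of 32 sodium, calcium and HCN channel genes 29 were detected, 4 higher and 7 lower beside the same shares, with a median log2 ratio of -0.09, and Cacna2d1 had 814 against 503 CPM where Cacna2d3 was low. Of 75 adhesion and guidance genes 70 were detected, 17 higher and 24 lower beside the same shares, with a median log2 ratio of -0.02. Pcdh9, Cntnap2 and Nlgn1, all higher in 4 of 4 libraries, had 9288, 9187 and 4234 CPM against 4555, 5699.8 and 2916 CPM, and Cntn5, a neuronal contactin, had 2912 ± 532 CPM against 1227 ± 48.8 CPM. Cntnap4 and Nrxn3, both neurexin-superfamily proteins, were lower at 61.6 and 1835 CPM against 248 and 4378 CPM. Of 9 calcium-binding protein genes 8 were detected, 2 higher and 3 lower beside the same shares, with a median log2 ratio of -0.35.

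Similarity to the other neuronal clusters was taken as Spearman's rho of log2 levels over 17109 genes, which share libraries and base composition and are not independent. The nearest of 133 were cluster 30 (named Zfp804b/Npas1), cluster 90 (Pou4f1/Klhl1) and cluster 45 (Prdm16/Zfp804b), with rho of 0.958, 0.954 and 0.952 beside a median of 0.917 and a range of 0.751 to 0.958. All 3 expressed Slc17a6, at 135, 151 and 194 CPM. Cluster 90 was closest in the leading genes, with D130009I18Rik at 649, D130079A08Rik at 328, Pou4f1 at 47.8, Gm12688 at 36.5, Tafa1 at 1080 and Foxd3 at 6.43 CPM. It differed in Nr4a2, at 0.997 CPM against 58.8 CPM, in Zic4, at 7.96 against 55.7 CPM, and in Npsr1, at 0.704 against 78.3 CPM. Clusters 30 and 45 had Pou4f1 at 0.531 and 8.25 CPM and Gm12688 at 4.95 and 0 CPM. These differences were not tested, since the clusters were built from the same genes.

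**Figure D3:**
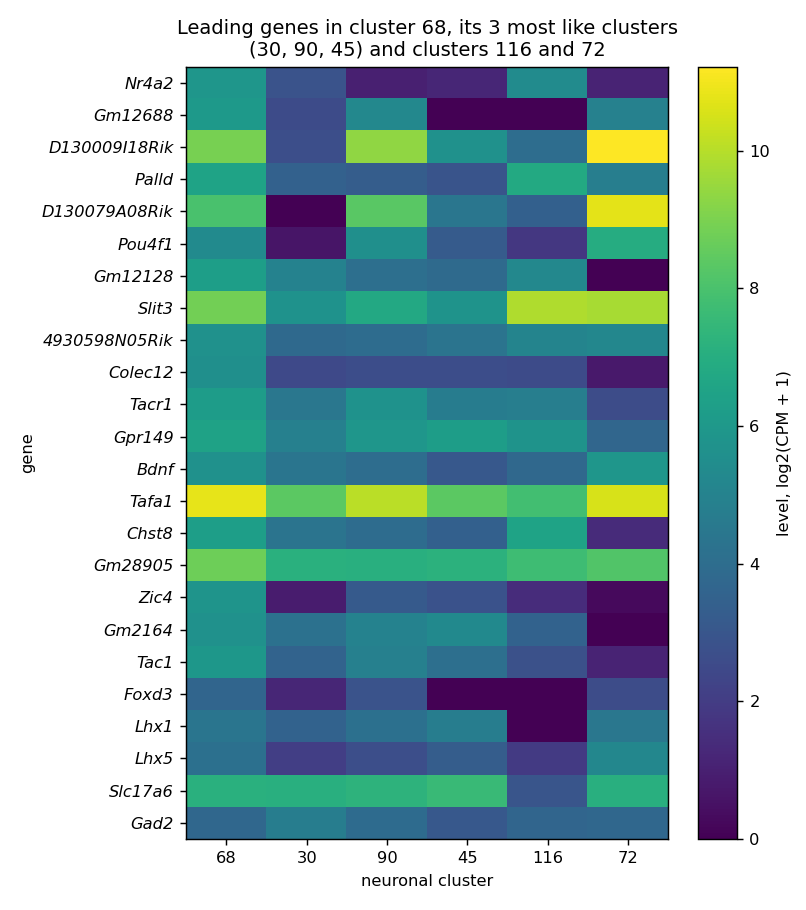
The heat map gives log2(CPM + 1) by colour for 19 of the 20 leading genes, Foxd3, Lhx1, Lhx5, Slc17a6 and Gad2. Columns are cluster 68, its 3 most like clusters and clusters 116 and 72. CPM is the mean over the libraries that hold nuclei of the cluster. The 3 Pou4f1 locus genes are high in clusters 68, 90 and 72, Nr4a2 in clusters 68 and 116, and no other column shows both.

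The 131 nuclei were not uniform. For each of 2647 genes with at least 100 UMIs in the cluster, the number of nuclei with a UMI was set beside the number that would have one if UMIs followed depth alone. The median of the ratio was 0.950, and 11 genes were at 0.5 or below. Foxp2, a forkhead factor, was the lowest with 24 nuclei where 98.7 would have had a UMI, and the 14 nuclei richest in it held 91.6% of its UMIs. Npsr1 had 23 where 66.1 were computed, Erbb4 47 where 120 were computed, Il1rapl2 48 where 121 were computed and Pde1a 33 where 73.3 were computed. These genes were thus carried by some nuclei rather than by all at a low level.

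**Figure D4:**
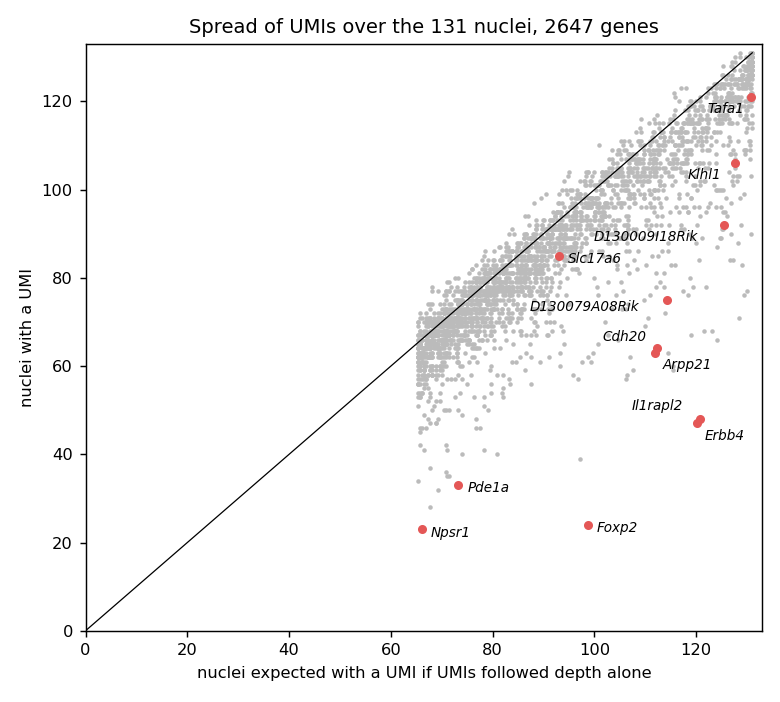
The scatter plot sets the nuclei with a UMI (vertical axis) against the nuclei that would have one if UMIs followed depth alone (horizontal axis), 1 point per gene for 2647 genes, with equality as a line. Most points lie near the line, and Foxp2, Npsr1, Erbb4, Il1rapl2 and Pde1a lie far below it.

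A UMI of at least 1 of the 3 Pou4f1 locus genes was found in 106 of 131 nuclei (80.9%), and in 16 of 21, 33 of 39, 36 of 45 and 21 of 26 nuclei of the 4 libraries. The nuclei with such a UMI had a median depth of 9596 UMIs and the other 25 had 8371. Slc17a6 was seen in 75 of the 106 and in 10 of the 25, Zic4 in 45 and 2, and Npsr1 in 21 and 2. All 12 nuclei with a Th UMI were among the 106. Gad2 was seen in 4 and 3, Slc32a1 in 1 and 3 and Slc6a5 in 14 and 4. With UMIs pooled over nuclei, the 106 and the 25 had 7.59 and 27.3 CPM of Gad2, 0.844 and 13.7 CPM of Slc32a1 and 32.9 and 91.1 CPM of Slc6a5. The levels in the 25 come from 6, 3 and 20 UMIs in those 3, 3 and 4 nuclei, and those in the 106 from 9, 1 and 39 UMIs. These nuclei were split by measured genes, and the values are a description.

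A set of 16 nuclei had 3 or more UMIs of Foxp2, and they came from all 4 libraries (3, 8, 4 and 1). They also carried more Cdh20, a cadherin (1033 against 121 CPM in the other 115 nuclei), and Zfhx3, a homeodomain factor (940 against 159 CPM). Pou4f1 had a UMI in 0 of the 16 and in 43 of the 115, and so did Hoxb3. D130009I18Rik was nonetheless seen in 13 of the 16 and in 79 of the 115, Nr4a2 in 12 and 24, and Slc17a6 in 10 and 75. The nuclei were chosen by a measured gene, so these values are a description.

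The first comparison between the groups was the share of neurons in cluster 68. It was 0.850% (exact 95% interval 0.527 to 1.30) and 1.43% (1.02 to 1.94) in the controls and 1.22% (0.889 to 1.63) and 0.715% (0.467 to 1.05) in the AgRP-Gq;POMC-Gi libraries. The groups overlapped, with 1.14 ± 0.407% in controls and 0.966 ± 0.355% in AgRP-Gq;POMC-Gi (SD, n = 2 libraries each). The difference of -0.172 percentage points had p = 0.667 in an exact two-sided permutation test, in which 2 against 2 libraries cannot go below 0.333. As a share of all kept nuclei the difference was 0.0599 percentage points, of opposite sign.

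The main comparison asked which genes differed between the groups inside cluster 68. Of 12238 genes with a UMI in 5% or more of the nuclei none passed an adjusted p of 0.05 in the quasi-likelihood test of edgeR (0%). At an unadjusted p under 0.05 there were 661 genes (5.4%), 304 higher (2.48%) and 357 lower (2.92%) in AgRP-Gq;POMC-Gi, and DESeq2 also called 0 after adjustment and 84 without. Both AgRP-Gq;POMC-Gi libraries lay above both controls for 1604 genes (13.1%) and below for 2671 (21.8%). These 2 counts use CPM without the TMM library factors of the edgeR test. Without those factors edgeR gave 213 higher and 481 lower genes at an unadjusted p under 0.05. The tilt towards lower values therefore changed with the normalization. The statements below on the 10 genes with the smallest p are therefore values and not calls. In all 10 the groups did not overlap, which the choice by p from these same libraries favours, so it is no separate result. The count of calls depended on the settings. It was 22 with no filter on genes, 10 with a UMI in 10% of nuclei and 18 with the replicate number as a block. Of the 10 genes 9 were among the calls in each, from the same counts by which they were chosen. Leaving out a control library gave 11 calls (without replicate 1) or 12 calls (without replicate 2), from fits with 1 library in that group, which was taken to vary like the others.

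Dpyd, the first enzyme of pyrimidine breakdown, had 135 and 89.5 CPM in the controls and 240 and 370 CPM in AgRP-Gq;POMC-Gi, a log2 fold change of 1.54 (SE 0.284, edgeR adjusted p = 0.0763). Nuclei with a Dpyd UMI numbered 9 of 21, 17 of 39, 19 of 45 and 13 of 26. The richest nucleus of each library held 7 of 30, 10 of 41, 31 of 111 and 23 of 97 Dpyd UMIs. Has2os had 0, 1, 9 and 31 UMIs in 0, 1, 2 and 8 nuclei, and 8 of the 9 sat in 1 nucleus. Its fitted value was 5.09, with the same adjusted p as Dpyd in edgeR. With 0 and 1 UMIs in the controls that value depends on the prior count, and the gene is antisense to Has2, with the strand setting of the counting not given in the sources used here. Chsy3, an enzyme of chondroitin sulfate synthesis, had 158, 131, 318 and 290 CPM, a log2 fold change of 1.18 (SE 0.262). Mitf, a basic helix-loop-helix factor, had 31.6, 32.8, 106 and 87.7 CPM, and Poln, a DNA polymerase, had 22.5, 24.0, 60.5 and 122 CPM. In these 4 genes with UMIs in every library the AgRP-Gq;POMC-Gi values were all higher. The adjusted p-values from edgeR for Mitf, Poln and Chsy3 were 0.116, 0.116 and 0.117.

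Foxp2, whose UMIs sat in few nuclei, had 234, 253, 108 and 26.7 CPM and a log2 fold change of -1.62 (SE 0.336, edgeR adjusted p = 0.0952). Nuclei with any Foxp2 UMI numbered 4 of 21 and 8 of 39 in the controls and 9 of 45 and 3 of 26 in AgRP-Gq;POMC-Gi. Leaving out AgRP-Gq;POMC-Gi replicate 1 moved the value to -3.17, and leaving out replicate 2 of that group moved it to -1.06. The nuclei with at least 3 Foxp2 UMIs numbered 3 of 21 and 8 of 39 in the controls and 4 of 45 and 1 of 26 in AgRP-Gq;POMC-Gi. Per nucleus with a Foxp2 UMI there were 13.0 and 14.5 UMIs in the controls and 5.56 and 2.33 in AgRP-Gq;POMC-Gi, not matched for depth. The nuclei with at least 3 Foxp2 UMIs had median depths of 13393 and 12169 UMIs in the controls. In AgRP-Gq;POMC-Gi these medians were 7496 and 7748 UMIs. Whether fewer Foxp2-rich nuclei, less Foxp2 RNA per nucleus or depth made up the difference was not tested. Erbb4, the neuregulin receptor, had 942, 282, 160 and 217 CPM, and 1 nucleus of control replicate 1 held 171 of the 209 UMIs of that library. Its log2 fold change of -1.59 was -0.55 without that library. Pde1a, a calcium-dependent phosphodiesterase, had 122, 138, 45.4 and 38.1 CPM, a log2 fold change of -1.54 (SE 0.330, edgeR adjusted p = 0.112). mt-Nd1, a mitochondrial gene, had 144, 192, 36.7 and 80.1 CPM and a log2 fold change of -1.59. It had a UMI in 16 of 21, 24 of 39, 12 of 45 and 9 of 26 nuclei. A single nucleus of control replicate 2 held 29 of the 88 mt-Nd1 UMIs of that library. The median mitochondrial share of the nuclei of the cluster was 0.142% and 0.150% in the controls and 0.0594% and 0.118% in AgRP-Gq;POMC-Gi. The part of mitochondrial share in the gene results was not tested, nor was that of Xist.

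Arpp21, an RNA-binding phosphoprotein regulated by cyclic AMP, had 140 and 135 CPM in the controls and 248 and 481 CPM in AgRP-Gq;POMC-Gi. Its log2 fold change inside the cluster was 1.44 (SE 0.285, edgeR adjusted p = 0.0845). In the other neurons it had 552 and 497 CPM in the controls and 402 and 506 CPM in AgRP-Gq;POMC-Gi, a log2 fold change of -0.15 (SE 0.111). The difference of these differences was 1.54 (SE 0.248) with an adjusted p of 0.00799 in edgeR, the only one of 12238 genes past the threshold (0.00817%). Nuclei with an Arpp21 UMI numbered 9 of 21, 17 of 39, 21 of 45 and 16 of 26, and no nucleus held more than 27 UMIs. Without control replicate 1 the value was 1.48 (edgeR adjusted p = 0.213), and without AgRP-Gq;POMC-Gi replicate 2 it was 1.24 (edgeR adjusted p = 0.383), each from a fit with 1 library in a group, which was taken to vary like the others. Over the other 10 alternatives the adjusted p from edgeR or DESeq2 was 1.15e-06 to 0.0214. The next genes, Pde1a, Erbb4 and Sorcs1, had differences of -1.70, -1.68 and -1.33 with edgeR adjusted p of 0.0517, 0.0533 and 0.0533, of which that of Erbb4 holds the single nucleus of control replicate 1 described above.

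Arpp21 spans the hairpin of Mir128-2 on the same strand (chr9:112118636-112118711 within chr9:112065091-112235938), and its mature miRNAs are shown because the gene gave the only call. The seed, bases 2 to 8, is in capitals, and the letters are RefSeq sequence of GRCm38.p6.
mmu-miR-128-3p: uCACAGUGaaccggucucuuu
mmu-miR-128-2-5p: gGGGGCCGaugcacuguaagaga
The libraries count polyadenylated transcripts, so neither miRNA was measured.

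A set of 10 IEGs serves as the series' readout of neuronal activity, and 5 of them had a UMI in 5% or more of the nuclei of the cluster. Of the 5, 1 was higher and 1 lower at an unadjusted p under 0.05, beside 2.48% and 2.92% of all genes, and none passed after adjustment. The median log2 fold change was 0.33 beside 0.01 over all genes. Homer1, a scaffold of the postsynaptic density, had 72.1, 48.0, 67.0 and 68.7 CPM, a log2 fold change of 0.33 (SE 0.353, edgeR adjusted p = 0.976). Nr4a1, a nuclear receptor of the same family as Nr4a2, had 13.5, 21.8, 30.3 and 15.3 CPM, and Btg1, an antiproliferative factor, had 9.01, 15.3, 19.4 and 3.81 CPM, with overlapping groups in both. Jun, a subunit of AP-1, had 5, 6, 1 and 1 UMIs and a log2 fold change of -2.36 (SE 0.975, edgeR adjusted p = 0.870). Of the other 5, Fos had 10 UMIs, Junb 11, Gem and Nr4a3 3 each and Fosl2 2, which left these 5 under the detection minimum.

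The IEG that was higher was 1700016P03Rik, with 13.5 and 15.3 CPM in the controls and 47.5 and 42.0 CPM in AgRP-Gq;POMC-Gi. These levels came from 3, 7, 22 and 11 UMIs in 2 of 21, 5 of 39, 7 of 45 and 4 of 26 nuclei. In AgRP-Gq;POMC-Gi replicate 1 a single nucleus held 9 of the 22 UMIs, and in replicate 2 a single nucleus held 8 of the 11. The log2 fold change of 1700016P03Rik was 1.68 (SE 0.507, unadjusted p = 0.00242 and adjusted p = 0.519 in edgeR), and in the other neurons it was 0.55 (SE 0.133). The difference between these was 1.14 (edgeR adjusted p = 0.968). The gene (chr11:75172560-75177633, plus strand) is the host transcript of Mir212 and Mir132, which neuronal activity and cyclic AMP are known to induce, and its 4 mature products are shown for that reason.
mmu-miR-212-5p: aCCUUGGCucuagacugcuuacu
mmu-miR-212-3p: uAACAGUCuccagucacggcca
mmu-miR-132-5p: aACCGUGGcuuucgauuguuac
mmu-miR-132-3p: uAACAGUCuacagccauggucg
The capitals again mark the seed, and miR-132-3p and miR-212-3p share the seed AACAGUC.

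The leading genes were also read between the groups. Of the 20, both AgRP-Gq;POMC-Gi libraries lay above both controls for 3 and below for 9, beside 13.1% and 21.8% of all genes, and the median log2 fold change was -0.12. Nr4a2 was the largest, with a log2 fold change of 1.15 (SE 0.373, edgeR adjusted p = 0.626) and a value of -0.14 (SE 0.278) in the other neurons. Without the nuclei that had a Foxp2 UMI, a setting added after the data were seen, the Nr4a2 value was 2.59 with an edgeR adjusted p of 0.0481. Of the 16 nuclei with 3 or more Foxp2 UMIs 12 also had one of Nr4a2, against 24 of the other 115. These 16 were spread unevenly over the libraries (3, 8, 4 and 1). The setting thus depends on the outcome, and no conclusion is drawn from that p. Nuclei with an Nr4a2 UMI numbered 5 of 21, 9 of 39, 12 of 45 and 10 of 26. Slc17a6 had a log2 fold change of 0.05 (SE 0.270) and an edgeR adjusted p of 0.986.

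Other lists gave no adjusted call. Of 18 tested GABA and glycine receptor genes 4 were lower at an unadjusted p under 0.05 (Gabra2, Gabrb1, Gabrg1 and Glra1) and 0 higher, with both AgRP-Gq;POMC-Gi libraries below both controls for 7 and above for 3. Over all genes tested 2.92% were lower and 2.48% higher at that level, and 21.8% lay below and 13.1% above, and the counts of the lists that follow stand beside the same shares. Gabra2 had 194, 190, 104 and 76.3 CPM and a log2 fold change of -0.97 (SE 0.277, edgeR adjusted p = 0.403). Of 45 transcription factors 2 were higher and 4 lower at that level, of 70 adhesion genes 3 and 4, of 35 potassium channels 2 and 1, and of 23 glutamate receptors 1 and 0. Of 12 neuropeptide genes 2 were higher and 0 lower, Tac1 and Pomc, and Pomc had only 1, 0, 4 and 5 UMIs. Of 22 peptide receptors 2 were higher, Hcrtr2 and Galr1, and in both a single library, AgRP-Gq;POMC-Gi replicate 2, stood above the other 3 with 99.2 and 38.1 CPM. Of the 3 tested astrocyte markers 1 was lower, Gja1, at 22.5, 6.55, 2.16 and 0 CPM, and the summed level of the 6 astrocyte markers was 117 and 56.8 CPM in the controls and 38.9 and 64.8 CPM in AgRP-Gq;POMC-Gi.

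**Figure D5:**
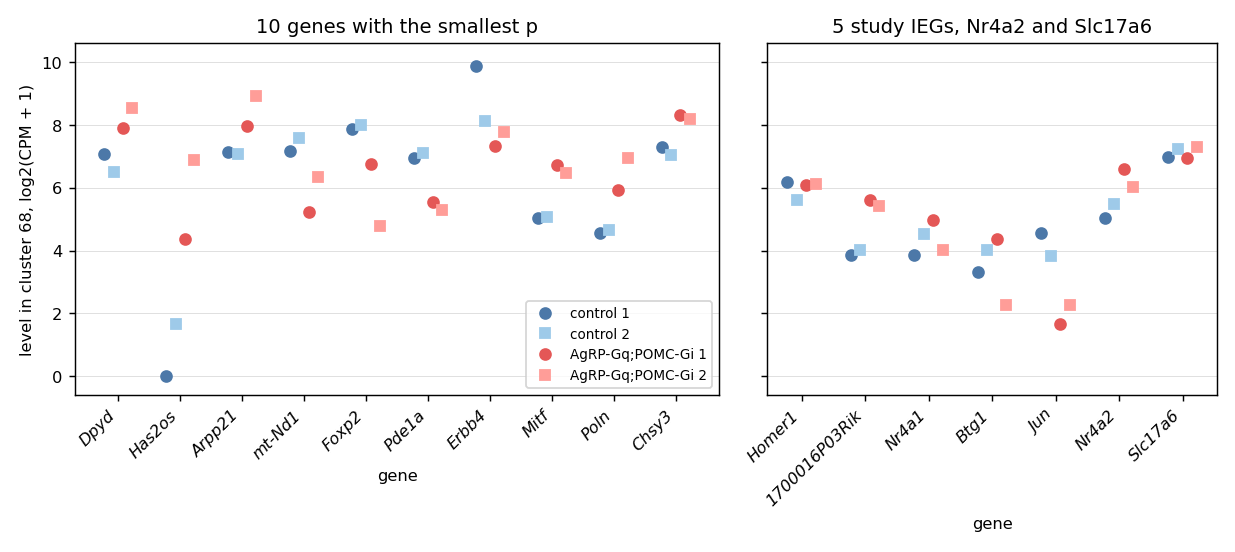
The dot plots give the level in cluster 68 as log2(CPM + 1) in each of the 4 libraries, for the 10 genes with the smallest p between the groups (left) and for the 5 tested IEGs, Nr4a2 and Slc17a6 (right). The 10 genes on the left were chosen by p from these same libraries, and for them the groups do not overlap. None of the 10 passed the adjusted threshold. For Homer1, Nr4a1, Btg1 and Slc17a6 the groups overlap.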

How the data were processed

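Posterior hindbrain nuclei, sorted on DRAQ5, were profiled in 4 libraries with the 10x Genomics 3′ kit. The authors mapped reads and made UMI counts per gene and barcode with Cell Ranger 7.0.0 on GRCm38, and deposited 1 count matrix per library. Their deposited table of nuclei gives UMIs, genes, mitochondrial RNA in percent, the nuclei kept, clusters and cell types, made with Seurat 4.3.0 and an embedding without IEGs. The stated filter asks for 800 UMIs and 500 genes, and kept nuclei met it, with at most 9.94% mitochondrial RNA. Doublets were detected by the authors with scDblFinder, their removal is not stated in the sources used here, and no doublet caller was run on the kept nuclei. The columns of IEG scores hold the authors' comparisons and were not used, nor was the joined matrix. Totals recomputed from the matrices equalled the table for 44303 of 44303 barcodes, of which 39461 were kept.

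Nuclei of cluster 68 and of the other neurons were taken from that table, and UMIs were summed per library. Groups were compared with the quasi-likelihood test of edgeR 4.0.16 in R 4.3.3 (TMM factors, genes seen in 5% or more of the 131 nuclei, Benjamini-Hochberg adjustment over 12238 genes, threshold 0.05), and the 2 populations' group differences with an interaction term. Each SE printed with an edgeR value is the absolute log2 value divided by the square root of its F statistic. DESeq2 1.42.0 was an alternative. Tests were tried on simulated data. Levels used a pseudocount of 1 CPM in ratios. Nuclei were also thinned to 2000 UMIs. Intervals are exact binomial (Clopper-Pearson) and cover counting error only. The genes named are 20 leading and 10 low genes by ratio, the 10 with the smallest p between groups, those past the threshold of the interaction, the 10 IEGs, and members of the gene lists with the highest levels or with a role described. Members other than these were chosen after their values were seen, as were the Foxp2 nuclei. Some genes that these rules name, and list counts that turn on them, are not reported here. Cluster, lists and rules were chosen with earlier results of these data known. Positions are of GENCODE M21 on GRCm38. Alternatives were no TMM factors, DESeq2, other gene filters, nuclei with at least 2000 UMIs, the replicate number as a block, each library left out and another denominator for the share.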

Additional observations from a re-analysis of the deposited data

Results flagged for a closer look

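One result met a rule for a closer look. The group difference of Arpp21 in cluster 68 minus that in the other neurons was 1.54 on the log2 scale. The interaction test in edgeR put the difference itself past the threshold. That test fitted 1 spread per gene to both populations, and inside cluster 68 alone the adjusted p of Arpp21 was 0.0845 in edgeR. The AgRP-Gq;POMC-Gi libraries were higher than the controls in cluster 68 in 2 of 2 cases, at 248 and 481 CPM against 140 and 135 CPM, whereas in the other neurons the groups overlapped. Leaving out control replicate 1 gave 1.48, leaving out replicate 2 of AgRP-Gq;POMC-Gi gave 1.24, and neither passed the threshold in these fits, which had 1 library in a group.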

How the results depend on the processing

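The count of genes that differed between the groups in cluster 68, 0 as reported, was 22 with no filter on genes (13 higher, 9 lower), 10 with a UMI in at least 10% of nuclei, 18 with the replicate number as a block and 4 without the nuclei with a Foxp2 UMI, the setting added later. It was 0 to 12 when single libraries were left out and 0 without TMM factors, with DESeq2, with filterByExpr and with nuclei of at least 2000 UMIs. Of the 10 named genes, 9 were among the calls with no filter, at 10% and with the block, from the same counts by which they were chosen. The count of genes whose group difference differed from that in the other neurons, 1 as reported, was 12, 2, 18 and 3 under the same 4 settings, 5 with nuclei of at least 2000 UMIs and 0 to 16 without single libraries. The cause of these changes was not tested. The numbers share no stated animal or batch, and same-numbered libraries deviated with a correlation of -0.0278 over 5798 genes, so the block is no pairing by design. The IEG count was 0 in all settings.

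The share difference reversed to 0.0599 over all kept nuclei and ran from -0.459 to 0.116 when single libraries were left out. After thinning to 2000 UMIs, the log2 ratio of the shares of nuclei with a Slc17a6 and with a Gad2 UMI was 4.91. That is another measure than the ratio of levels, 3.37, and Gad2 then had a UMI in only 0.775% of nuclei. Of the 20 leading genes 16 to 20 were shared under each alternative, and Nr4a2 was lost without AgRP-Gq;POMC-Gi replicate 2, where fewer than 25% of nuclei had a UMI. The log2 fold change of Foxp2 ran from -3.17 to -1.06, that of Erbb4 from -2.25 to -0.55 and that of Homer1 from 0.0085 to 0.55 when single libraries were left out, and Nr4a2 was 0.72 without AgRP-Gq;POMC-Gi replicate 1. That of Nr4a1 ran from -0.30 to 0.93 and that of Btg1 from -1.67 to 0.67 when single libraries were left out, both lowest without AgRP-Gq;POMC-Gi replicate 1, and Btg1 was negative also without control replicate 1 (-0.12), with the block (-0.068) and without Foxp2 nuclei (-0.093). The libraries held 21 to 45 of these nuclei, so that 1 UMI stood for 2.16 to 4.51 CPM.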

Other observations

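Clock and glucocorticoid-induced genes were read in the same way. Of 16 clock genes 15 were tested between the groups in cluster 68, and 0 were higher and 1 lower at an unadjusted p under 0.05, Npas2, a partner of the clock factor Arntl, with 36.1 and 63.3 CPM in the controls and 13.0 and 15.3 CPM in AgRP-Gq;POMC-Gi (edgeR adjusted p = 0.389). In the other neurons its log2 fold change was -0.03. Of 16 glucocorticoid-induced genes 10 were tested, and 2 were lower at that level. Fkbp5, a cochaperone of the glucocorticoid receptor, had 54.1, 41.5, 19.4 and 26.7 CPM, and Mt1, a metallothionein, had 117, 37.1, 19.4 and 30.5 CPM. The groups did not overlap for either gene. Both AgRP-Gq;POMC-Gi libraries lay above both controls for 5 and below for 2 of the 15 clock genes, and above for 2 and below for 2 of the 10 glucocorticoid-induced genes. Over all 12238 genes tested 2.48% were higher and 2.92% lower at that unadjusted level, and 13.1% lay above and 21.8% below. None of these genes passed the adjusted threshold in edgeR. Necab1, a neuronal calcium-binding protein chosen after its values were seen, had 13.5, 15.3, 38.9 and 83.9 CPM in the same order (edgeR adjusted p = 0.268).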
